A study of Mus musculus with 36 samples.

Results

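The genes described here are the transcriptional repressors and output factors of the circadian clock that are driven through E-boxes. They comprise the PAR bZip factors Dbp, Tef and Hlf, the period genes Per1, Per2 and Per3, the REV-ERB receptors Nr1d1 and Nr1d2, and the repressors Ciart and Bhlhe41. These 10 genes were listed by name for their place in the clock and looked up by symbol among the 53715 gene identifiers of the table, with no threshold on measured values. They were chosen with earlier results of these data known. All 10 were present, 8 passed the filter on low counts, and 14068 genes in all were tested.

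Liver RNA was sequenced from male C57BL/6 mice aged 10 weeks, with 12 libraries per diet. Control mice ate AIN93G, a purified rodent diet. Red mice ate AIN93G with 10% red tomato powder, and Tangerine mice ate AIN93G with 10% tangerine tomato powder, from 4 weeks of age for 6 weeks. Red tomatoes carry lycopene mostly as the all-trans form and tangerine tomatoes mostly as cis forms. The diets were matched for macronutrients, and each library carries its own mouse number, although the labels give 11 to 12 mice per group. The labels used here give no time of day at which livers were taken, so the part of time of collection in any result below was not tested.

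In the mammalian clock, the activators ARNTL (BMAL1) and CLOCK or NPAS2 bind E-boxes and switch on the period and cryptochrome genes, whose proteins then inhibit those activators. The same E-box drive raises the REV-ERB receptors, which repress Arntl, and the PAR bZip factors, which carry the rhythm to genes of detoxification through D-box elements. In liver these transcripts are among the most strongly rhythmic of all, and they peak in the part of the day when Arntl is low.

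The promoters of these genes were searched for the letter sequences of such binding sites. RefSeq start sites on GRCm38.p6 gave 11 windows for 9 of the 10 genes, all but Per2, each from 250 bases before to 50 bases after a start, and each was searched on both strands. The E-box CACGTG occurred in 5 of the 11 windows, those of Tef (both starts), Per1 (1 of 2 starts), Ciart and Bhlhe41, and in 7.15% of all 32851 windows. The stretches below, from windows of measured genes, show each E-box with its flanks 5′ to 3′ on the strand of the gene, the motif in capitals.
Tef, chr15:81802534-81802563, plus strand: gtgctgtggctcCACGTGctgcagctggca
Tef second start, chr15:81811264-81811293, plus strand: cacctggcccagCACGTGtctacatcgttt
Per1, chr11:69098771-69098800, plus strand: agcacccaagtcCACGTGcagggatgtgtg
Bhlhe41, chr6:145865556-145865585, minus strand: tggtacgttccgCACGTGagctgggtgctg
Nr1d1 held the related E-prime-box CACGTT, here on the opposite strand, which 4.68% of all windows hold.
Nr1d1, chr11:98775388-98775417, minus strand: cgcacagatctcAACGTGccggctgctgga
The D-box TTANGTAA, the PAR bZip site, occurred in the Per3 window (2 matches) and in 2.32% of all windows. The cyclic AMP response element TGACGTCA occurred in the Hlf window and in 1.79% of all. The forms TAGGTCA and TGGGTCA, bound by REV-ERB and ROR receptors, were in none of the 11 windows and in 2.61% and 3.98% of all. The windows of Dbp and Nr1d2 held none of these motifs. No motif overlapped another in these windows, and a match is only a match of letters.

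Total counts ranged from 21290169 to 33810573 per library. Hepatocyte markers (Alb, Apoa1, Ttr, Serpina1a, Tat and Cps1) together made up 85912 to 122795 CPM, here scaled to the raw library total, and none of the 6 was at 0. A pair of libraries carried transcripts of other tissues. Summed over the 4 T cell markers, red 186 had 3176 counts and every other library at most 79. In red 186, 4 of 5 adipose markers were also highest, although the summed adipose count was 124134, against 152121 in the highest other library. For the pancreas markers, tangerine 216 had 228 counts and other libraries at most 8, with 5 of 6 markers highest there and Cela2a at 0 in every library. In bulk tissue, fewer cells of a type and less RNA per cell cannot be told apart.

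Per3, a period gene, and Ciart, a repressor of the ARNTL complex, were listed at 0 in every one of the 36 libraries. These zeros carry no level, because genes that liver cells are known to use were listed at 0 throughout as well. B2m, the light chain of class I histocompatibility molecules, Hsd11b1, the liver's cortisone reductase, and Vamp3, which adjoins Per3, all summed to 0 over the 36 libraries. These examples were chosen after their values were seen. Of 21890 protein-coding identifiers, 4397 (20.1%) were at 0 in every library. The antisense transcript C920021L13Rik spans Ciart on the other strand and had 865 counts in total, and Camta1, whose span contains Per3 on the same strand, had 4981. Per3 (chromosome 4, 151003652 to 151044665) and Ciart (chromosome 3, 95878503 to 95882251) are therefore not described further, and the counts below are over the 8 measured genes.

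Levels of all other genes are given in CPM as the count scaled to a library size corrected with edgeR's normalization factors. Per kilobase of annotated exon, Nr1d1 was the most abundant of the 8, at 29.5 ± 9.27 CPM per kilobase (SD, n = 36). Dbp followed at 18.3 ± 13.6, Tef at 15.7 ± 8.36 and Nr1d2 at 14.4 ± 5.16. Hlf stood at 8.32 ± 2.38, Per2 at 5.68 ± 1.91, Per1 at 4.52 ± 2.73 and Bhlhe41 at 0.211 ± 0.173 on the same scale. Neighbours in this order overlapped within 1 SD, except that Bhlhe41 lay apart below Per1. The place of Dbp differed by diet, at 7.54 CPM per kilobase on red, below Tef at 9.60, and at 26.9 on tangerine, above Tef at 20.3.

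The comparison of the tomato types sets tangerine-fed mice against red-fed mice. The level of all 8 genes was higher on tangerine than on red, with a median log2 fold change of 0.73, against a median of -0.0046 over all tested genes. Dbp, Tef and Nr1d2 passed the threshold (edgeR's quasi-likelihood test, adjusted p under 0.05), so 3 of 8 rose, against 1.71% of all tested genes in either direction and 0.732% upward. At an unadjusted p under 0.05 there were 7 of 8, against 15.1% of all genes. Against control, red had 0 genes past the threshold and 6 of 8 at an unadjusted p under 0.05, where the shares over all genes were 0.149% (0.0498% higher and 0.0995% lower) and 13.3%. On tangerine against control 0 of 8 passed and 0 of 8 had an unadjusted p under 0.05 (0.0142% and 5.47% of all genes). DESeq2 called 1 gene of the 8 on red against control, where it called 1.19% of all genes. In limma-voom with sample weights it was 6 of the 8, where 10.5% of all genes were called. Both called 0 of the 8 on tangerine against control (0.0498% and 0.0142% of all genes). The 3 comparisons share libraries, so their values are set side by side and not counted as separate evidence.

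**Figure D1:**
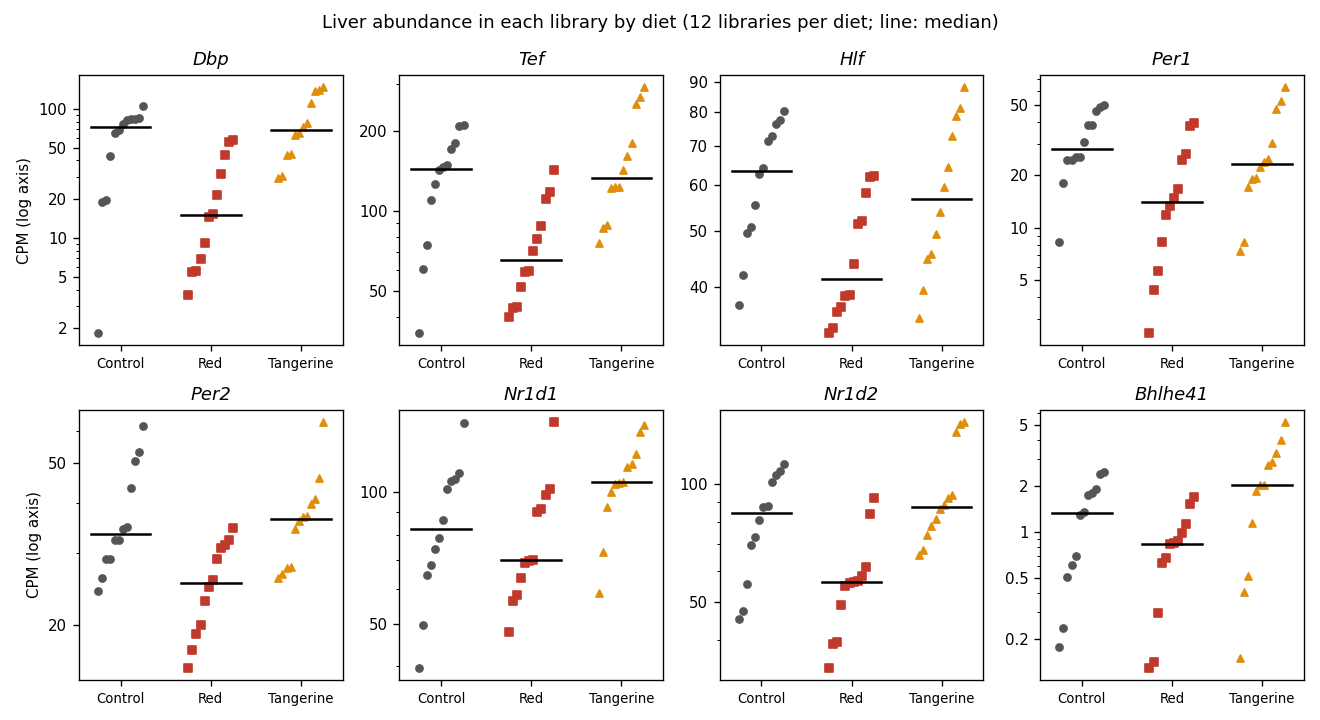
Abundance of the 8 measured genes in every library, in CPM on a log axis, by diet; each point is 1 mouse, points are sorted by value within a diet, and the line is the median of 12. The Dbp points on red reach from 3.64 to 57.6 CPM and lie below the control median of 72.5 CPM.

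The PAR bZip factors are described first. Dbp (ENSMUSG00000059824.12, chromosome 7, 45705088 to 45710203, plus strand of GRCm38) encodes the D-site binding protein, the strongest rhythmic activator of the family in liver. Its lowest, median and highest values were 1.84, 72.5 and 105 CPM on control, 3.64, 15.01 and 57.6 CPM on red, and 29.1, 68.7 and 148 CPM on tangerine. All 12 red libraries lay below both the control and the tangerine median, 8 of 12 tangerine libraries exceeded every red library, and the ranges overlapped. A single control, mouse 188, had less Dbp than any red mouse. The log2 fold change of tangerine against red was 1.84 (SE 0.46, adjusted p 0.0289 in edgeR), a 3.57-fold higher level. Red against control gave -1.44 (SE 0.45, adjusted p 0.141 in edgeR) and tangerine against control 0.39 (SE 0.44, adjusted p 0.9999, 95% interval -0.47 to 1.26). The tail of Dbp overlaps Sphk2, a sphingosine kinase gene on the other strand, which had a log2 fold change of -0.34 on tangerine against red (SE 0.11, adjusted p 0.125 in edgeR). The strand setting of the counting is not given in the sources used here, so how reads were shared between them was not tested.

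Tef (ENSMUSG00000022389.15, chromosome 15, 81802421 to 81826863, plus strand) encodes thyrotroph embryonic factor, which binds the same D-box sequence as DBP. Its lowest, median and highest values were 34.9, 144 and 211 CPM on control, 40.1, 65.3 and 143 CPM on red, and 75.7, 133 and 291 CPM on tangerine. Every red library was below the control median, every tangerine library was above the red median, and the ranges overlapped. Tef was 2.11-fold higher on tangerine than on red (log2 fold change 1.08, SE 0.26, adjusted p 0.0271 in edgeR). The change was -0.83 on red against control (SE 0.26, adjusted p 0.141 in edgeR) and 0.24 on tangerine against control (SE 0.26, adjusted p 0.9999).

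Hlf (ENSMUSG00000003949.16, chromosome 11, 90336536 to 90390895, minus strand), hepatic leukemia factor, is the third PAR bZip gene and varied least of the 3. It ran from 37.3 to 80.2 CPM on control (median 63.4), from 33.4 to 62.1 CPM on red (median 41.4) and from 35.5 to 88.3 CPM on tangerine (median 56.6). No red library reached the control median, and 10 of 12 tangerine libraries exceeded the red median. The difference of tangerine from red did not pass (log2 fold change 0.38, SE 0.15, adjusted p 0.193 in edgeR), nor did that of red from control (-0.43, SE 0.15, adjusted p 0.177). Between tangerine and control it was -0.05 (SE 0.15), with a 95% interval from -0.34 to 0.24.

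The period genes encode the core inhibitors of the activators. Per1 (ENSMUSG00000020893.17, chromosome 11, 69095217 to 69109960, plus strand) is also an acute target of cyclic AMP and glucocorticoid signals. It ran from 8.30 to 50.1 CPM on control (median 28.0), from 2.51 to 39.3 CPM on red (median 14.0) and from 7.37 to 63.1 CPM on tangerine (median 23.0). The 3 ranges overlapped over most of their length, and both ends of the scale were held by the pair of libraries with transcripts of other tissues, red 186 lowest and tangerine 216 highest. The log2 fold change was 0.71 on tangerine against red (SE 0.37, adjusted p 0.354 in edgeR) and -0.89 on red against control (SE 0.37, adjusted p 0.288). Without red 186 and tangerine 216 the former was 0.43 (SE 0.35, adjusted p 0.630), and in mice numbered 182 to 208 it was 0.22 (SE 0.64, adjusted p 0.938).

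Per2 (ENSMUSG00000055866.9, chromosome 1, 91415982 to 91459324, minus strand) is the period protein most needed for a stable rhythm. Its lowest, median and highest values were 24.2, 33.5 and 61.9 CPM on control, 15.7, 25.3 and 34.7 CPM on red, and 26.0, 36.5 and 63.3 CPM on tangerine. Of the 12 tangerine libraries, 12 exceeded the red median and 7 exceeded every red library. Red against control had a log2 fold change of -0.57 (SE 0.16, adjusted p 0.0927 in edgeR), and tangerine against red 0.54 (SE 0.16, adjusted p 0.0664). Neither passed in edgeR, whereas DESeq2 called both (adjusted p 0.0298 and 0.0241), as did limma-voom (0.0251 and 0.0228). On tangerine against red these tools called 2.99% and 5.20% of all genes. With tangerine 160, control 208 or tangerine 226 left out, tangerine against red passed in edgeR (adjusted p 0.0448, 0.0488 and 0.0456). The difference of tangerine from control was -0.03 (SE 0.16, 95% interval -0.34 to 0.28).

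The REV-ERB receptors bind heme and repress Arntl. Nr1d2 (ENSMUSG00000021775.11, chromosome 14, 18204054 to 18239127, minus strand), encoding REV-ERB beta, had lowest, median and highest values of 45.1, 84.1 and 112 CPM on control, 33.9, 56.0 and 92.1 CPM on red, and 65.7, 87.2 and 144 CPM on tangerine. Of the red libraries, 10 of 12 lay below the lowest tangerine library, and red 170 and red 204 lay among the tangerine values. Nr1d2 was 1.69-fold higher on tangerine than on red (log2 fold change 0.75, SE 0.17, adjusted p 0.0173 in edgeR), the smallest p of the 8 genes. It stayed past the threshold with each of the 36 libraries left out in turn (adjusted p from 0.00792 to 0.0414). It was also the 1 gene of the 8 to pass the test for any difference among the 3 diets (adjusted p 0.0349, where 1.18% of all genes passed and 13.9% had an unadjusted p under 0.05). That last count fell to 0 of 8 without any one of red 133, 156, 166, 175, 199, 202 or 203 or of tangerine 215, 216 or 217. Calls over all genes then ran from 59 to 113, against 166 with all libraries. On red against control the log2 fold change was -0.52 (SE 0.17, adjusted p 0.153 in edgeR), and on tangerine against control 0.24 (SE 0.17, adjusted p 0.985).

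Nr1d1 (ENSMUSG00000020889.11, chromosome 11, 98767932 to 98775333, minus strand), encoding REV-ERB alpha, ran from 39.6 to 145 CPM on control (median 82.6), from 47.9 to 145 CPM on red (median 69.8) and from 58.8 to 143 CPM on tangerine (median 105). These ranges nearly coincided, and 5 of 12 red libraries were above the control median. Red differed from control by a log2 ratio of -0.10 (SE 0.17, adjusted p 0.847 in edgeR, 95% interval -0.44 to 0.24), the smallest of the 8 in that comparison. Tangerine exceeded red by 0.41 (SE 0.17, adjusted p 0.252 in edgeR) and control by 0.31 (SE 0.17, adjusted p 0.949). The 3′ end of Nr1d1 overlaps that of Thra, a thyroid hormone receptor gene on the other strand. Thra itself fell by 0.37 on the log2 scale on tangerine against red (SE 0.08, adjusted p 0.0140 in edgeR). Thra averaged 427 counts per library against 2450 for Nr1d1, and the sharing of reads between them was not tested.

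Bhlhe41 (ENSMUSG00000030256.11, chromosome 6, 145858243 to 145865558, minus strand), also called DEC2, encodes a repressor that competes for the E-box itself. It was scarce, with 4 to 158 counts per library. Its lowest, median and highest values were 0.177, 1.32 and 2.46 CPM on control, 0.130, 0.841 and 1.70 CPM on red, and 0.150, 2.02 and 5.24 CPM on tangerine. Although 8 of 12 tangerine libraries exceeded every red library, the other 4 lay within the red range. The log2 fold change of tangerine against red was 1.45 (SE 0.43, adjusted p 0.0726 in edgeR), with adjusted p 0.0459 in DESeq2 and 0.106 in limma-voom. Without tangerine 128 or tangerine 195 it passed in edgeR (adjusted p 0.0359 and 0.0448). Tangerine against control gave 0.81 (SE 0.41, adjusted p 0.9199 in edgeR) and red against control -0.65 (SE 0.44, adjusted p 0.555).

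**Figure D2:**
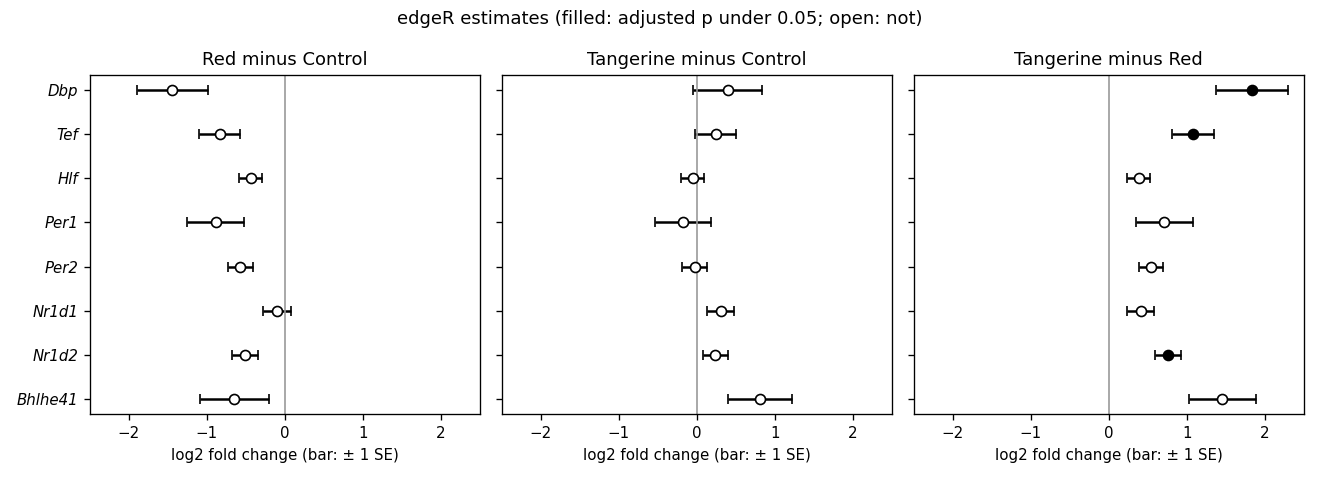
Log2 fold changes of the 8 genes in the 3 comparisons of diets, with bars of 1 SE; filled points have an edgeR adjusted p under 0.05. All 8 estimates are below 0 for red minus control, all 8 are above 0 for tangerine minus red, and the 3 filled points are Dbp, Tef and Nr1d2.

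Leaving out red 186 and tangerine 216 together ended all 3 calls, with log2 fold changes on tangerine against red of 1.62 for Dbp (SE 0.47, adjusted p 0.0984 in edgeR), 0.93 for Tef (SE 0.27, adjusted p 0.0997) and 0.69 for Nr1d2 (SE 0.17, adjusted p 0.0528). Over all genes the calls fell from 241 (1.71%) to 86 (0.612%). Without red 186 alone the same comparison had 3 of the 8 genes past the threshold. Without tangerine 216 alone it had 1, as it did without red 199, red 202, tangerine 215 or tangerine 217. There the calls over all genes ran from 89 to 156. In each of these 5 cases Dbp (adjusted p from 0.0528 to 0.0684) and Tef (0.0504 to 0.0682) missed the threshold. Dbp also missed it without red 133, red 156, red 166, red 175 or tangerine 242 (0.0509 to 0.0549). Over all 36 libraries left out in turn, the log2 fold change stayed between 1.72 and 2.06 for Dbp, between 0.97 and 1.20 for Tef and between 0.69 and 0.84 for Nr1d2.

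Mouse numbers were spread unevenly over the diets, and the level of these genes was therefore set against them. The numbers ran from 120 to 245 on control, from 133 to 204 on red and from 128 to 242 on tangerine, and 10 of 12 tangerine mice but 4 of 12 red mice had a number of 192 or more. With the number as a covariate none of the 8 genes passed on tangerine against red, and 32 genes passed in all (0.227%). Of the 8, 7 had an unadjusted p under 0.05 in edgeR. The share of all genes at that level was not counted in this fit, and it was 15.1% without the covariate. No conclusion is therefore drawn from that count. The log2 fold change was then 1.56 for Dbp (SE 0.48, adjusted p 0.114 in edgeR), 0.91 for Tef (SE 0.27, adjusted p 0.108) and 0.69 for Nr1d2 (SE 0.17, adjusted p 0.0528). Between the numbers 182 and 208, where all 3 diets occur with 5 control, 5 red and 4 tangerine mice, the same changes were 1.73 (SE 0.88, adjusted p 0.526), 0.67 (SE 0.47, adjusted p 0.671) and 0.54 (SE 0.27, adjusted p 0.525). With so few mice 7 genes in the whole table passed. What the mouse number stands for is not given in the sources used here.

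**Figure D3:**
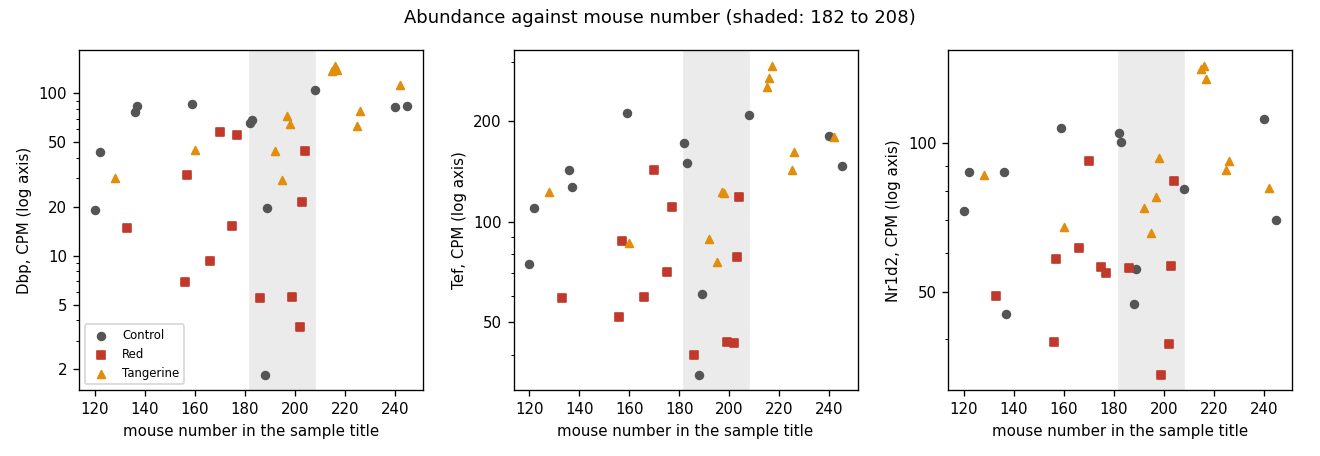
Abundance of Dbp, Tef and Nr1d2 in CPM on a log axis against the mouse number, 1 point per mouse, with the numbers 182 to 208 shaded. Tangerine 215, 216 and 217 lie together at the top of each panel, with Tef at 252, 268 and 291 CPM, and control 188 is lowest for Dbp at 1.84 CPM.

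The genes were then compared in how much they varied between mice of 1 diet. Dbp had a standard deviation of 1.33 log2 units within diets, the 24th highest of 14068 genes, where the median over all genes was 0.24. Bhlhe41 (1.19), Per1 (0.99) and Tef (0.69) ranked 34th, 89th and 435th. Bhlhe41 had only 4 to 158 counts per library, and the part of counting noise in its spread was not tested. The others varied less, with 0.45 for Nr1d1, 0.43 for Nr1d2, 0.40 for Per2 and 0.38 for Hlf. Their ranks were 2061, 2465, 2965 and 3285, all still above the median spread. Between the lowest and the highest of the 36 libraries Dbp differed 80.3-fold, Per1 25.2-fold, Tef 8.36-fold and Hlf 2.64-fold. Measured against its own spread, the difference of tangerine from red was largest for Nr1d2, at 1.78 standard deviations, followed by Tef at 1.57, Dbp at 1.38, Per2 at 1.37, Bhlhe41 at 1.22, Hlf at 1.01, Nr1d1 at 0.90 and Per1 at 0.72. Dbp therefore led by fold change and Nr1d2 by its size relative to the differences between mice.

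How the genes varied together from mouse to mouse was examined with the mean of each diet removed. Of 28 pairs, 28 had a positive Pearson's r, with a median of 0.55, and 23 passed a two-sided permutation test with adjustment over the 28 pairs. Within single diets 16 passed on control, 6 on red and 8 on tangerine, and 28, 28 and 27 were positive. The share that passes among pairs of other genes was not counted, and all genes share the depth and RNA of a library. Of 10962 genes outside the list, 51.1% had a positive r to Dbp. Dbp and Tef formed the closest pair (r = 0.92, Spearman's rho = 0.89, permutation p 1e-05 for each, the smallest the permutations can give, adjusted 3.11e-05 and 7.00e-05, n = 36). Without the 2 mice farthest from the Dbp median r was 0.92. Within single diets r was 0.94 on control, 0.97 on red and 0.91 on tangerine (n = 12 each, permutation p 6e-05, 1e-05 and 8e-05), with rho of 0.80, 0.98 and 0.88 (p 0.00305, 1e-05 and 0.00035). Tef thus followed Dbp in every diet, and its slope was 0.48 log2 units per log2 unit of Dbp (SE 0.03), a smaller swing than that of Dbp. By diet the slope was 0.45 on control (SE 0.05), 0.43 on red (SE 0.03) and 0.72 on tangerine (SE 0.10), and the difference between these slopes was not tested.

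Over all 36 mice each REV-ERB receptor correlated with Dbp, whereas their correlation with one another did not pass, and the difference between these correlations was not tested. For Nr1d1 and Dbp r was 0.75 (rho 0.58, permutation p 1e-05 and 0.00041, adjusted 3.11e-05 and 0.000957, 0.66 without the 2 mice farthest from the Dbp median). For Nr1d2 and Dbp it was 0.67 (rho 0.58, permutation p 1e-05 and 0.00047, adjusted 3.11e-05 and 0.00101, 0.62 without them). Between Nr1d1 and Nr1d2 r was 0.28 (rho 0.28, permutation p 0.112 and 0.110, adjusted 0.121 and 0.119, 0.20 without the 2 mice farthest from the Nr1d1 median). Within single diets of 12 mice the correlations with Dbp did not all pass. For Nr1d1 r was 0.78 on control, 0.84 on red and 0.49 on tangerine (rho 0.55, 0.76 and 0.44, permutation p of r 0.00180, 0.00058 and 0.105, adjusted 0.0126, 0.00812 and 0.157). For Nr1d2 it was 0.57, 0.76 and 0.81 in that order (rho 0.26, 0.69 and 0.79, permutation p of r 0.0406, 0.00344 and 0.00140, adjusted 0.0632, 0.0193 and 0.00560). Without the 2 control mice farthest from the Dbp median r was 0.41 for Nr1d1 and 0.32 for Nr1d2 in that diet. Single mice differed in the order of the receptors. Control 137 had the highest Nr1d1 of its diet, 145 CPM, and the lowest Nr1d2, 45.1 CPM, and red 177 had 145 CPM of Nr1d1 beside 54.7 CPM of Nr1d2. Nr1d2 went most closely with Tef (r = 0.80, rho = 0.77, permutation p 1e-05 each, adjusted 3.11e-05 and 7.00e-05, 0.77 without the 2 mice farthest from the Tef median), with r of 0.71 on control, 0.80 on red and 0.93 on tangerine.

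Between the period genes the correlation was weaker than for Dbp and Tef. For Per1 and Per2 r was 0.40 (rho 0.48, permutation p 0.0160 and 0.00416, adjusted 0.0204 and 0.00728, 0.42 without the 2 mice farthest from the Per1 median). By diet it was 0.46 on control, 0.21 on red and 0.65 on tangerine, and none of the 3 passed after adjustment (permutation, adjusted p 0.168, 0.602 and 0.0546). Per1 and Bhlhe41 had the lowest r of all pairs, 0.21 (rho 0.28, permutation p 0.228 and 0.116, adjusted 0.228 and 0.120, 0.17 without the same 2 mice). The other pairs that did not pass were Per2 with Hlf, with Nr1d1 and with Nr1d2. Per1 went more closely with Tef (r = 0.71, rho = 0.72, permutation p 1e-05 each, adjusted 3.11e-05 and 7.00e-05, 0.75 without the 2 mice farthest from the Tef median) than with Per2, and the difference between these correlations was not tested. Control 188 had the lowest Dbp of all 36 mice (1.84 CPM) beside 24.1 CPM of Per1, whereas tangerine 192 had 44.1 CPM of Dbp beside 7.37 CPM of Per1.

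**Figure D4:**
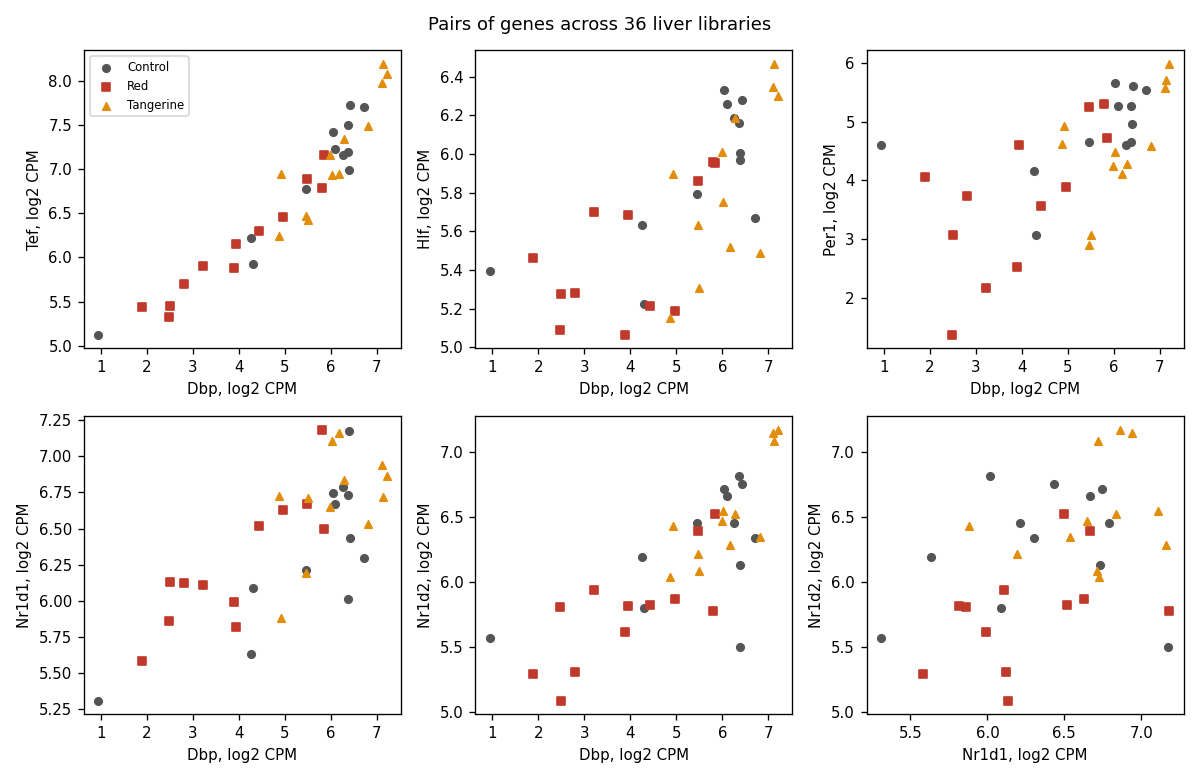
Log2 CPM of 6 pairs of genes across 36 libraries, 1 point per mouse, marked by diet. Dbp and Tef lie close to a line (r = 0.92 with diet means removed), whereas Nr1d1 and Nr1d2 scatter (r = 0.28).

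**Figure D5:**
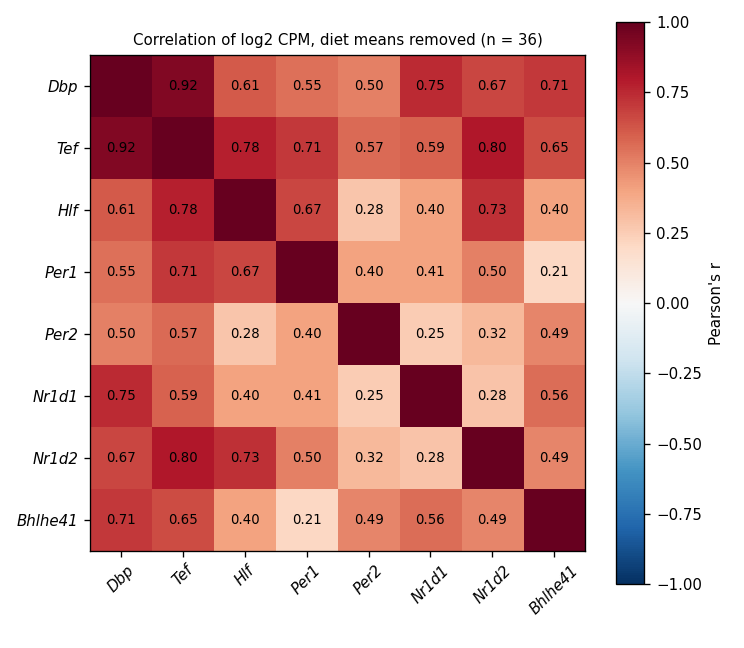
Pearson's r of log2 CPM for the 28 pairs after removing the mean of each diet, over 36 libraries; colour and number both give r. Values run from 0.21 for Per1 with Bhlhe41 to 0.92 for Dbp with Tef, and none is negative.

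The genes outside the list that moved most like Dbp between mice of 1 diet, out of 10962 genes whose mean log2 CPM reached 1, were Cyp2a5 (r = 0.83, rho = 0.86), Slc5a6 (0.82, 0.86), Tns2 (0.81, 0.71), Cyp2a4 (0.80, 0.82) and Narf (0.78, 0.86). Cyp2a5, a coumarin hydroxylase, and its close copy Cyp2a4 can share reads, so their separate levels are uncertain. Among the genes most opposite to Dbp were Chka (-0.85, -0.86), a choline kinase, Arntl (-0.84, -0.90), Dnmt3b (-0.82, -0.88), a DNA methyltransferase, and Cry1 (-0.82, -0.77). These were picked for their likeness over 36 libraries, whose depth and RNA all the genes share, so no test is given. Between the tomato types Narf rose by a log2 fold change of 0.52 (SE 0.12, adjusted p 0.0173 in edgeR), and Chka and Dnmt3b fell, with values of -1.15 (SE 0.24, adjusted p 0.0146) and -1.04 (SE 0.24, adjusted p 0.0237). Slc5a6, Tns2 and Cyp2a4 did not pass, with log2 fold changes of 0.53, 0.23 and 0.91 (adjusted p 0.0987 in edgeR, 0.319 and 0.0687).

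Other parts of the clock were examined in a list of 18 genes, 17 of them tested, since Usp2 was listed at 0. The list was written with earlier results of these data known. On tangerine against red 0 rose and 4 fell, with a median log2 fold change of -0.03. Of all tested genes, 0.732% rose and 0.981% fell past the threshold. The 4 that fell were activators and a repressor of the opposite phase. Npas2 had a log2 fold change of -2.51 (SE 0.58, adjusted p 0.0224 in edgeR), Arntl of -1.46 (SE 0.40, adjusted p 0.0464), Clock of -0.46 (SE 0.13, adjusted p 0.0492) and Cry1 of -0.47 (SE 0.13, adjusted p 0.0497). Mean Arntl was 7.83 ± 6.87 CPM in control mice, 17.1 ± 7.33 in red-fed mice and 6.24 ± 4.01 in tangerine-fed mice (SD, n = 12 each). The other cryptochrome, Cry2, was higher on tangerine by 0.43 (SE 0.13, adjusted p 0.0805 in edgeR). Against control 0 of the 17 passed on either powder in edgeR, with 8 at an unadjusted p under 0.05 on red and 0 on tangerine. Of all genes, 0.149% passed on red and 0.0142% on tangerine, and 13.3% and 5.47% had an unadjusted p under 0.05.

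Genes downstream of these factors were taken from lists written from general knowledge, with earlier results of these data already known. Their counts are therefore a description and not independent support. Of 14 genes that REV-ERB receptors are known to repress, all tested, 0 rose and 4 fell on tangerine against red, and these are the same Npas2, Arntl, Clock and Cry1, which both lists hold. The median of the 14 was -0.53, against -0.0046 over all tested genes. At an unadjusted p under 0.05 there were 9 of the 14, against 15.1% of all genes. Of all tested genes, 0.732% rose and 0.981% fell past the threshold. Elovl3, a fatty acid elongase of that list, averaged 238 ± 205 CPM in control mice, 413 ± 160 in red-fed mice and 185 ± 105 in tangerine-fed mice (SD, n = 12 each), with a log2 fold change of -1.16 (SE 0.33, adjusted p 0.0657 in edgeR). Of 12 genes downstream of the PAR bZip factors, where the same shares over all genes apply, 1 rose and 0 fell, with a median of 0.06. That gene was Cyp2a5, at 172 ± 80.2 CPM in control mice, 96.1 ± 39.6 in red-fed mice and 194 ± 79.4 in tangerine-fed mice (SD, n = 12 each), a log2 fold change of 1.02 (SE 0.26, adjusted p 0.0309 in edgeR). Por, the electron donor of the cytochromes P450, had 0.73 (SE 0.29, adjusted p 0.210 in edgeR), and Pdk4, a kinase that restrains glucose oxidation, -1.16 (SE 0.33, adjusted p 0.0590). Without red 186 and tangerine 216, and also with the mouse number as covariate, 0 genes of each of the 3 lists passed. In those settings 0.612% and 0.227% of all genes passed.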

How the data were processed

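Liver RNA of 36 mice was sequenced from libraries made with a directional kit, per the labels' protocols. The authors deposited 1 table of raw read counts per gene, with no normalization. The submitters' processing notes name GRCm38.p6, FastQC, Trimmomatic and edgeR, whereas the aligner, counter, annotation and strand setting are not given in the sources used here. Symbols, positions and exon lengths came from GENCODE release M21 by Ensembl identifier (53620 of 53715 matched), and promoters from RefSeq on GRCm38.p6.

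Low counts were removed with filterByExpr, and libraries were scaled with TMM factors. Diets were compared with the quasi-likelihood F test of edgeR 4.0.16 with robust estimation, over all 36 libraries without covariates. Benjamini-Hochberg adjustment ran over all 14068 tested genes within a comparison, with a threshold of 0.05. CPM were scaled by edgeR, with a prior count of 2 on the log2 scale. Permutation tests used 100000 shuffles within diets. For edgeR, the SE is the absolute log2 fold change divided by the square root of the F statistic. The 95% intervals are normal intervals from that SE. The labels name separate mice but no molecular identifiers. Mouse numbers differ between diets, so nothing was paired. The scripts were tested on simulated data.

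The members and gene lists were chosen with earlier results of these data known. The naming rule covered the 10 members, the 5 genes most and least like Dbp, and up to 5 genes per list by smallest p on tangerine against red. One gene that the rule named is not reported here. The alternatives used DESeq2 1.42.0 and limma 3.58.1 among others. Of the 45 possible pairs of members, 28 had both genes measured.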

Additional observations from a re-analysis of the deposited data

How the results depend on the processing

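No paired analysis was possible because no mouse number occurs in more than 1 diet. The number of the 8 genes called moved with the setting, and the cause of these moves was not tested. On tangerine against red, 3 genes in edgeR (1.71% of all genes), it was 1 without a low-count filter (0.498%) and 5 with DESeq2 (2.99%). It was 0 with the mouse number as covariate (0.227%), with mice 182 to 208 alone (0.049%), and without red 186 and tangerine 216 (0.612%). On red against control, 0 in edgeR, it was 1 with DESeq2 and 6 with limma-voom, which called 1.19% and 10.5% of all genes against 0.149% in edgeR. For any difference among the diets it was 1 in edgeR (1.18% of all genes). It was 0 without a filter (0.465%), with the mouse number (0.519%), in mice 182 to 208 (0.049%) and without the pair of libraries (0.548%). It was 2 when mean log2 CPM was 1 or more (1.65%), 4 with the likelihood ratio test of DESeq2 (2.72%) and 5 with limma-voom (7.90%). With each library left out in turn, the numbers ran from 1 to 4 on tangerine against red, from 0 to 4 for any difference, and from 0 to 0 for each powder against control.

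Among the 17 other clock genes, 4 were called, with 2 under DESeq2 size factors, 1 without a filter, 7 with limma-voom, and 0 with the mouse number, in mice 182 to 208 and without the pair. The 14 REV-ERB targets gave the same sequence of numbers, 4, then 2, 1, 7, 0, 0 and 0. Over all genes these settings called 1.71%, then 1.68%, 0.498%, 5.20%, 0.227%, 0.049% and 0.612%. Of the 12 PAR bZip outputs 1 was called, with 0 without a filter, with the mouse number, in mice 182 to 208 and without the pair. It was 2 when mean log2 CPM was 1 or more, with DESeq2, with limma-voom, or with only the groups compared. Those last settings called 2.39%, 2.99%, 5.20% and 2.42% of all genes. The 23 correlated pairs stayed within 1.5 times under all 4 alternatives run.

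The sign of single fold changes was opposite in 2 values from other settings, both on tangerine against control, where limma-voom gave Per2 0.0374 and mice 182 to 208 gave Tef -0.28, and in 7 values with 1 library left out, all for Per2 on tangerine against control (from 0.0033 to 0.0586, where all 36 such values ran from -0.126). No sign changed on tangerine against red. Bhlhe41, at 4 to 158 counts per library, is the gene most limited by depth.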
